A study of Mus musculus with 6 samples.

Results

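The cytosolic ribosomal protein genes encode the proteins of the ribosome that works in the cytoplasm. They were taken from the table of gene expression by their symbols: Rpl or Rps followed by a number, with an optional letter or a closing l or x, together with Rpsa, Rplp0, Rplp1 and Rplp2. Pseudogene symbols (ending in -ps and a number) and the Rps6k kinases were left out. The rule found 85 of the 19844 genes in the table, of which 52 carry large-subunit names and 33 small-subunit names. Of these, 77 encode standard ribosomal proteins (46 of the large and 31 of the small subunit) and 8 are close paralogs of another member: Rpl3l, Rpl7l1, Rpl22l1, Rpl32l, Rpl36al, Rpl39l, Rps4l and Rps27l. By the RefSeq gene table they are spread over 19 chromosomes, with 4 on the X.

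The study profiled RNA from the distal colon of C57BL6 mice that lacked ChREBP (KO) and of wild-type mice (WT), with 3 mice per genotype and 1 library from each mouse. ChREBP, encoded by Mlxipl, is a transcription factor that responds to sugar metabolites. Both genotypes had received azoxymethane, a carcinogen, and dextran sulphate sodium, which injures the colon lining, and all tissue was taken on day 17 of that regimen, so there was no untreated colon to compare with. The labels do not say whether the deletion covers the whole animal or certain cell types, and they give no age.

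Ribosomes consist of a large subunit, which forms peptide bonds, and a small subunit, which reads the messenger RNA. Most of their proteins are encoded by single genes that are transcribed at high rates in nearly all cells, and cells adjust the amount of the proteins largely through translation of their messengers. These messengers typically start with a run of pyrimidines, the terminal oligopyrimidine or TOP sequence, which couples their translation to the nutrient-sensing kinase mTORC1. In the colon, the dividing cells at the base of the crypts and the secretory cells make much protein and are rich in ribosomes.

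Levels were given by the authors as FPKM, the number of sequenced fragments of a transcript relative to its length and to all mapped fragments, a unit that divides out transcript length and library size. Mlxipl had 3.40, 5.66 and 5.04 FPKM in KO replicates 1 to 3, against 5.84, 7.49 and 7.27 FPKM in WT replicates 1 to 3. Its log2 fold change was -0.48 (SE 0.18), with an adjusted p of 0.9995 by limma with Benjamini-Hochberg adjustment, so the 3 KO values were below the 3 WT values without passing the test. The labels do not give the deleted stretch of the gene, and reads from outside it would still be counted. All 10 colon epithelium markers were detected, with summed levels of 5734 to 6193 FPKM in KO libraries and 5479 to 6575 FPKM in WT libraries. The labels call all mice female, whereas the Y-linked gene Ddx3y had 9.51 to 10.2 FPKM in KO libraries and 10.8 to 12.1 FPKM in WT libraries, and Xist stayed between 0.02 and 0.04 FPKM in all 6. Sequencing depth relative to WT replicate 1 was estimated from microRNA genes whose values step by single reads. Only genes with values already close to those in WT replicate 1 were used, 8 to 17 per library. The medians were 0.989 to 1.01 in KO libraries, and 0.970 and 0.978 in WT replicates 2 and 3. That choice of genes bound them to lie near 1, so they do not show that depths were equal. Absolute depth is unknown from these values, and the spread between mice sets the precision of what follows.

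The ribosomal protein genes made up a large share of the summed FPKM in every library. Their share was 9.30%, 11.6% and 10.2% in KO replicates 1 to 3, against 9.95%, 10.4% and 10.3% in WT replicates 1 to 3. The KO mean was 10.4% ± 1.18 and the WT mean 10.2% ± 0.237 (SD, n = 3 each), a difference of 0.141 percentage points that was smaller than the spread among KO libraries. KO replicate 1 held the lowest share of the 6 libraries, KO replicate 2 the highest, and KO replicate 3 lay inside the WT range. In bulk tissue, fewer cells of a type and less RNA per cell cannot be told apart, so these shares describe the tissue and not the single cell.

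**Figure D1:**
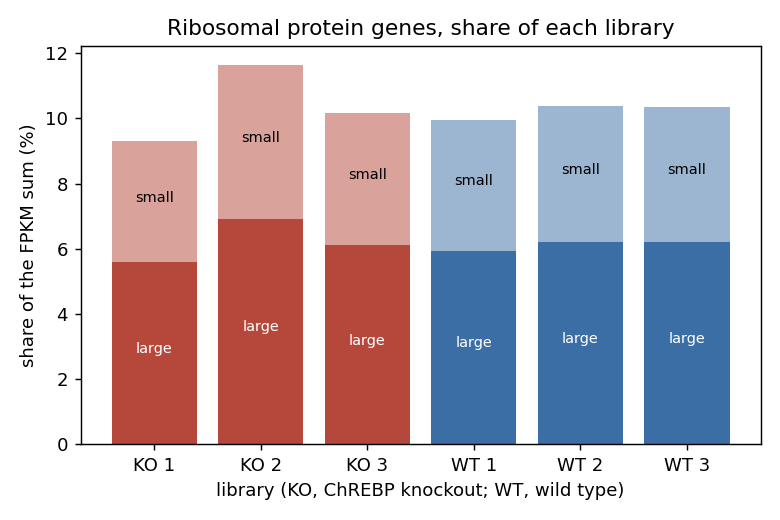
Share of each library's summed FPKM (%) taken by ribosomal protein genes, stacked as large-subunit and small-subunit genes, with the KO libraries on the left and the WT libraries on the right. The KO libraries span 9.30% to 11.6% and the WT libraries 9.95% to 10.4%, and both subunits are lowest in KO replicate 1 and highest in KO replicate 2.

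Both subunits moved together across libraries. Large-subunit genes took 5.59%, 6.92% and 6.10% of the FPKM sum in KO replicates 1 to 3, against 5.94%, 6.20% and 6.22% in WT replicates 1 to 3. Small-subunit genes took 3.71%, 4.72% and 4.06% in KO replicates 1 to 3, against 4.01%, 4.18% and 4.12% in WT replicates 1 to 3. The ratio of the large-subunit sum to the small-subunit sum was therefore nearly constant, at 1.49 ± 0.0225 in KO libraries and 1.49 ± 0.0154 in WT libraries (SD, n = 3 each).

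What set the libraries apart was an almost family-wide shift in 2 KO mice. Among the 82 members that passed the filter on low values (at least 1 FPKM in at least 3 libraries), 80 had their highest value in KO replicate 2 and 67 their lowest in KO replicate 1, whereas 25.8% and 21.0% of all 13247 tested genes did so. Both held for 66 members and for 7.68% of all tested genes. KO replicate 2 exceeded the mean of the other 5 libraries by a median of 0.33 on the log2(FPKM + 1) scale over the members, a 1.26-fold difference, beside 0.03 over all tested genes. KO replicate 1 was below the mean of the other 5 by a member median of -0.20, or 0.869-fold, beside -0.02 over all tested genes. Directly between these KO mice, the level in replicate 2 was a median of 1.36 times that in replicate 1, with a range of 0.869 to 1.74 over members, and it was higher for 81 of 82 members; over other tested genes the median was 1.03 and 53.9% were higher. These counts describe single libraries, so they carry no test.

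**Figure D2:**
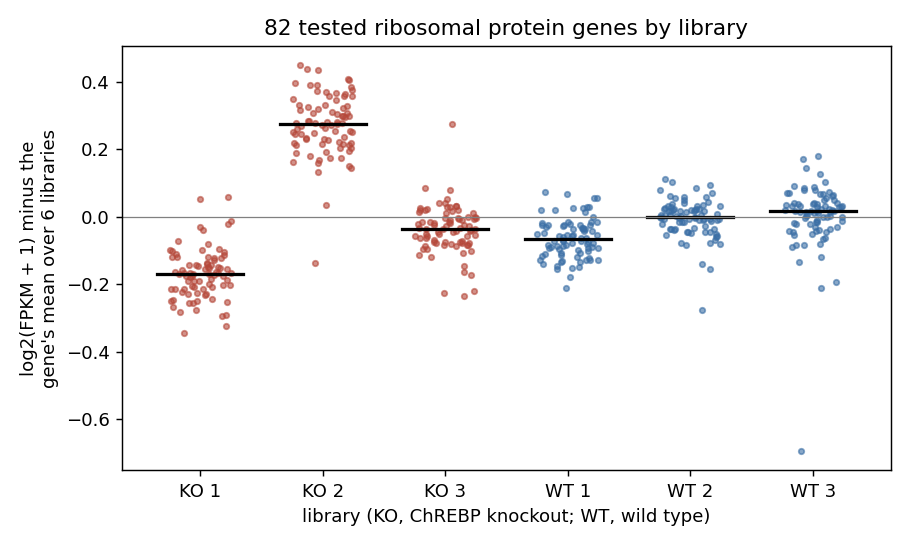
Each of the 82 tested ribosomal protein genes in each library as its log2(FPKM + 1) minus its own mean over the 6 libraries, KO libraries left and WT libraries right, with the median marked by a line. The medians are -0.17 in KO replicate 1 and 0.28 in KO replicate 2, and between -0.07 and 0.02 in the other libraries.

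The spread between mice was accordingly wide in KO and narrow in WT. The SD over the KO libraries was larger than that over the WT libraries in 81 of 82 members, beside 60.4% of all tested genes. The median coefficient of variation of a member was 16.7% in KO and 4.75% in WT, where the medians over all tested genes were 12.9% in KO and 10.3% in WT. In WT the median member thus varied less than the median tested gene. Most members have far higher FPKM than the typical tested gene, and a comparison with other genes of like level was not made. The exceptions within WT were few: Rps4l varied by 28.7%, Rpl22l1 by 13.1%, Rps23 by 12.1%, Rps2 by 10.4% and Rps15a by 10.1%, and the other members by less than 10%.

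Rescaling the libraries kept the order for most members but changed the size of the shift. The FPKM sum was 478500 in KO replicate 2 and 439107 to 447327 in the other libraries. With each library brought to the same FPKM sum, 77 members were highest in KO replicate 2 and 65 lowest in KO replicate 1. The median excess of KO replicate 2 was then 0.22, beside 0.33 as deposited. The median of KO replicate 1 was -0.165, beside -0.202 as deposited. With median-of-ratios or upper-quartile scaling 80 members were highest in KO replicate 2, and with each library scaled to its genes outside the family 79 were.

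Transcript length moved with the same pattern outside the family. Ribosomal protein messengers are short, with a median matched transcript of 830 bases among the standard members and 2809 bases among all tested genes. Other tested genes with transcripts under 500 bases exceeded the other 5 libraries in KO replicate 2 by a median of 0.27 (log2, 194 genes), those of 500 to 1000 bases by 0.25 (792 genes), those of 1000 to 2000 bases by 0.14 (2963 genes), those of 2000 to 4000 bases by 0.03 (5436 genes), and those of 4000 bases or more by -0.12 (3655 genes). The ribosomal protein genes lay above other genes of their class in KO replicate 2: 0.41 for 10 members under 500 bases, 0.33 for 48 of 500 to 1000 bases, 0.30 for 19 of 1000 to 2000 bases and 0.29 for 4 of 2000 to 4000 bases. In KO replicate 1 the member medians were between -0.22 and -0.20 in every length class, beside -0.15 to 0.00 for other genes. The 605 other abundant genes, of at least 100 FPKM on average, had medians of 0.11 in KO replicate 2 and -0.02 in KO replicate 1. The part of transcript length in the family's values was not tested.

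**Figure D3:**
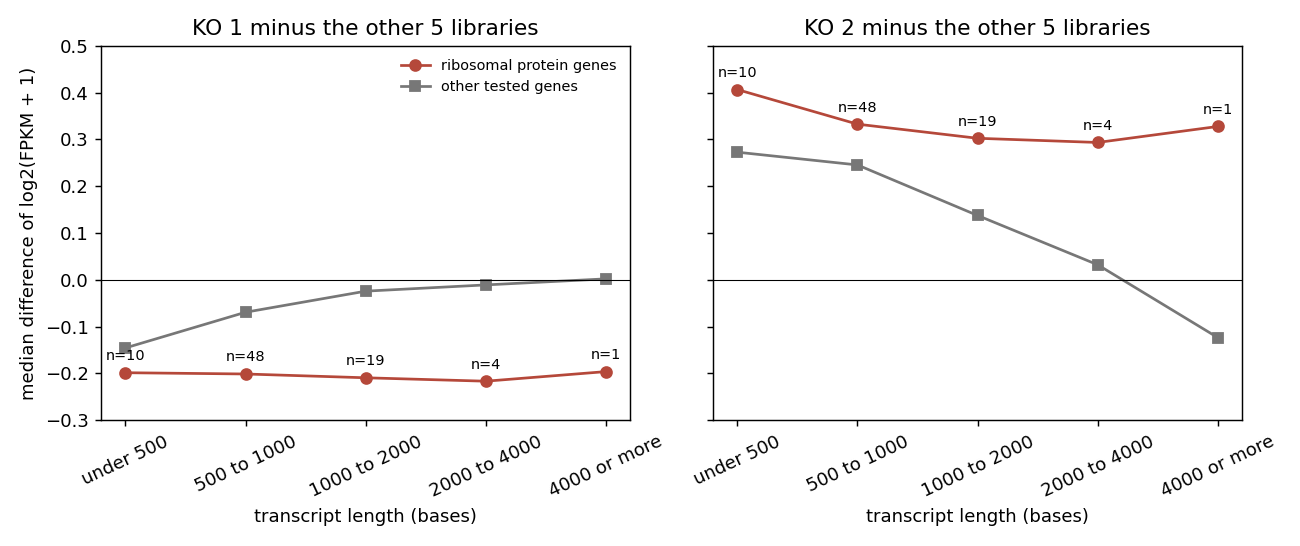
Median log2(FPKM + 1) of KO replicate 1 and of KO replicate 2 minus the mean of the other 5 libraries, by class of transcript length in bases, for ribosomal protein genes and for other tested genes. In KO replicate 2 other genes pass from 0.27 in the shortest class to -0.12 in the longest, while the members stay between 0.29 and 0.41; the longest class holds 1 member, Rps15a.

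Marker genes of some cell types differed between the same libraries. Macrophage markers summed to 310.4, 531 and 324 FPKM in KO replicates 1 to 3, against 349, 393 and 488 FPKM in WT replicates 1 to 3, and 5 of their 8 genes were highest in KO replicate 2 and 5 lowest in KO replicate 1. Plasma cell markers summed to 404, 573 and 275 FPKM in KO replicates 1 to 3, against 549, 512 and 569.6 FPKM in WT replicates 1 to 3. The 14 cell-cycle genes were all highest in KO replicate 1, beside 17.3% of all tested genes. They summed to 351, 264 and 256 FPKM in KO replicates 1 to 3, against 295, 252 and 203 FPKM in the WT replicates. Colon epithelium markers were above the other 5 libraries by a median of 0.20 in KO replicate 1 and below them by -0.15 in KO replicate 2. The list was split: 5 of its 10 genes were highest in KO replicate 1 and 2 were lowest there. Car4 (-0.76), Slc26a3 (-0.50) and Car1 (-0.13) were below the other 5 libraries in KO replicate 1. In KO replicate 2, Muc2 (0.27), Car4 (0.23) and Epcam (0.07) were above them. B cell markers summed to 64.1 to 93.9 FPKM in KO libraries and 25.2 to 142.5 FPKM in WT libraries. T cell markers summed to 10.6 to 16.95 FPKM in KO libraries and 12.4 to 20.5 FPKM in WT libraries, and neutrophil markers to 6.39 to 20.7 FPKM in KO libraries, where replicate 1 was highest, and 6.42 to 7.89 FPKM in WT libraries. Smooth muscle markers summed to 2873 to 4373 FPKM in KO libraries and 2680.5 to 3656 FPKM in WT libraries, fibroblast markers to 702 to 753 FPKM in KO libraries and 631 to 805 FPKM in WT libraries, and endothelial markers to 46.6 to 61.4 FPKM in KO libraries and 53.6 to 56.7 FPKM in WT libraries. No gene of these lists passed the test between genotypes, by limma with Benjamini-Hochberg adjustment (smallest adjusted p 0.9995), and the part of cell makeup in the family's values was not tested.

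Between genotypes, no ribosomal protein gene passed the test. By limma on log2(FPKM + 1) with Benjamini-Hochberg adjustment over all 13247 tested genes, 0 of 82 members had an adjusted p under 0.05, as did 2 of all tested genes (0.0151%), and the smallest adjusted p of a member was 0.9995. At an unadjusted p under 0.05 there was 1 member, Rps4l, beside 3.4% of all tested genes, or 1.7% when only genes higher in KO are counted, as Rps4l was. In 0 members were the 3 KO values all above or all below the 3 WT values, whereas this held for 8.67% of all tested genes. A comparison of 3 with 3 libraries by an exact permutation test cannot give a two-sided p below 0.10.

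The fold changes were small and mostly positive. Of 82 members, 65 were higher on average in KO (79.3%, beside 52.7% of all tested genes) and 17 lower, with a median log2 fold change of 0.03, beside 0.01 over all tested genes, and a range of -0.07 to 0.47. With every library brought to the same FPKM sum, 50 of 82 were higher in KO. The median SE was 0.139, and the 95% confidence interval lay within 1.5-fold of no difference for 81 members and within 2-fold for all 82. Large-subunit and small-subunit genes had the same median of 0.03, with 37 of 49 and 28 of 33 positive.

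The sign of the family's difference rested on single KO mice. Without KO replicate 1, 79 of 82 members were higher in KO, with a median log2 fold change of 0.13. Without KO replicate 2, 5 of 82 were higher and the median was -0.09. Without both of these libraries, an alternative chosen after seeing the data, 30 of 82 were higher and the median was -0.02. No member passed the test by limma with Benjamini-Hochberg adjustment in any of these fits (0% of all tested genes without KO replicate 1 and 0% without KO replicate 2), with 1 member at an unadjusted p under 0.05 without KO replicate 1 (6.09% of all tested genes) and 0 without KO replicate 2 (3.68%).

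**Figure D4:**
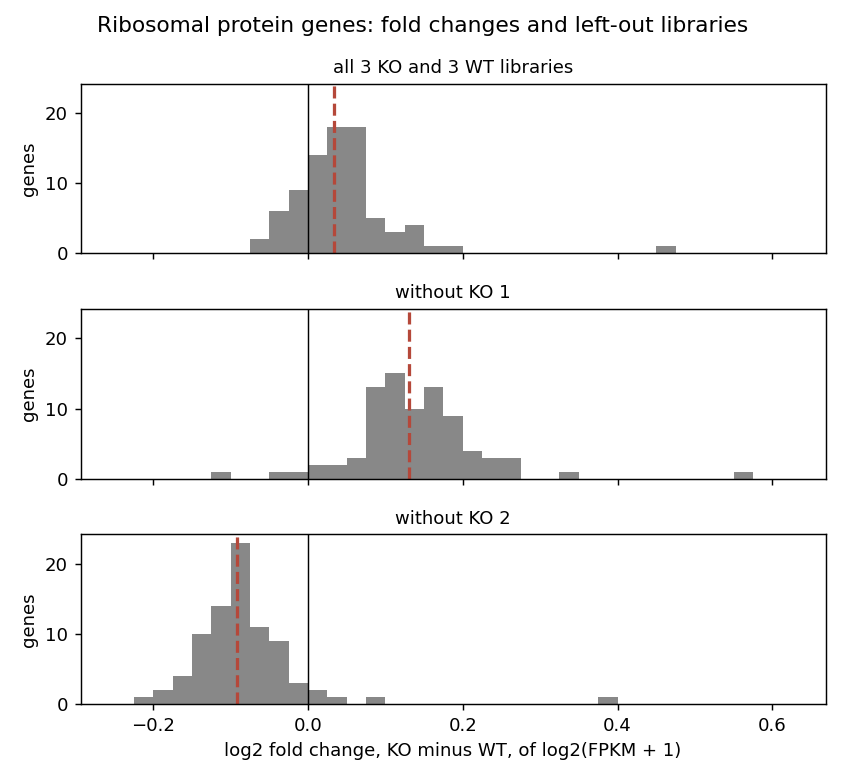
Number of ribosomal protein genes by log2 fold change of KO over WT in 3 fits: all libraries, without KO replicate 1 and without KO replicate 2, with the median as a dashed line. The median is 0.03 with all libraries, 0.13 without KO replicate 1 and -0.09 without KO replicate 2, so most of the distribution lies on one side of 0 without KO replicate 1 and on the other without KO replicate 2.

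The P stalk binds the factors that drive elongation, and it is built from Rplp0, its base, and the acidic proteins Rplp1 and Rplp2. Rplp0 had 1116, 1337 and 1102 FPKM in KO replicates 1 to 3, against 1214, 1204 and 1224 FPKM in WT replicates 1 to 3. Rplp1 had 1079, 1467 and 1093 FPKM in KO replicates, against 1067, 1115 and 1142 FPKM in WT replicates. Rplp2 had 456, 642 and 494 FPKM in KO replicates, against 506, 470.1 and 434 FPKM in WT replicates. In all 3 genes KO replicate 2 was the highest library. The other KO values lay within the WT range for Rplp1 and Rplp2, and below it for Rplp0. The log2 fold changes were -0.04 (SE 0.13) for Rplp0, 0.12 (SE 0.15) for Rplp1 and 0.16 (SE 0.15) for Rplp2, each overlapping between groups. Rplp0, commonly used as a reference gene in quantitative PCR, averaged 1185 ± 132 FPKM in KO and 1214 ± 9.97 FPKM in WT (SD, n = 3 each).

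Rpl5 and Rpl11 travel with the 5S ribosomal RNA and, when free of the ribosome, bind the p53 regulator Mdm2. Rpl5 had 304, 404 and 356 FPKM in KO replicates, against 334, 365 and 362 FPKM in WT replicates. Rpl11 had 568, 727 and 615 FPKM in KO replicates, against 596, 628 and 591 FPKM in WT replicates. KO replicate 1 was lowest and KO replicate 2 highest for both genes, and the WT values lay between them. The Rpl11 log2 fold change was 0.07 (SE 0.12), and that of Rpl5 was within 0.005 of 0 and changed sign with the scaling.

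Among small-subunit proteins, Rps6 is the classic target of the kinase S6K downstream of mTORC1. It had 549, 717 and 659 FPKM in KO replicates, against 648, 651 and 599.7 FPKM in WT replicates, with a log2 fold change of 0.01 (SE 0.13) whose sign turned with the scaling. Rpsa, also known as the laminin receptor, had 485, 611 and 495 FPKM in KO replicates, against 514, 511 and 518 FPKM in WT replicates. The WT mice differed by only a few FPKM in Rpsa, with an SD of 3.10 FPKM, and the KO mice by an SD of 70.3 FPKM around 530.4. Rps27a, which is made as a fusion with ubiquitin, had 272, 421 and 320.5 FPKM in KO replicates, against 311, 318 and 342 FPKM in WT replicates, and its log2 fold change was 0.04 (SE 0.16).

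Rps19, the gene most often mutated in Diamond-Blackfan anemia in humans, had 264, 411 and 291 FPKM in KO replicates, against 289.8, 323 and 298 FPKM in WT replicates. Its KO values thus lay on both sides of the WT range, and the log2 fold change was 0.06 (SE 0.17). Over 19 members linked to that disease, all 19 were highest in KO replicate 2 and 18 lowest in KO replicate 1, with 13 positive and 6 negative log2 fold changes (median 0.03) and 0 past the test. Rps26 had 975, 1434 and 1093 FPKM in KO replicates, against 1088, 1245 and 1174 FPKM in WT replicates, with a log2 fold change of -0.02 (SE 0.17). Members that bacterial ribosomes share behaved alike: of 15 in the small subunit 13 were positive (median 0.05), and of 18 in the large subunit 13 were positive (median 0.04), with 0 past the test in either list.

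Among the standard members with the smallest p, the values of KO and WT mice overlapped and none passed the test. Rpl36, a short large-subunit protein, had 173, 211 and 182 FPKM in KO replicates, against 159, 178 and 163 FPKM in WT replicates. Its KO mean of 189 ± 19.8 FPKM was above the WT mean of 167 ± 9.63 FPKM (SD, n = 3 each), and the log2 fold change was 0.18 (SE 0.11). WT replicate 2 overlapped the KO values. Rpl37 had 207, 263 and 222 FPKM in KO replicates, against 214, 207 and 207 FPKM in WT replicates, a log2 fold change of 0.14 (SE 0.11). Rps23, a protein at the decoding centre, had 629.8, 871 and 748 FPKM in KO replicates, against 724, 584 and 729 FPKM in WT replicates. Its log2 fold change of 0.14 (SE 0.16) was 0.03 without WT replicate 2, the lowest of the 6, and 0.02 without KO replicate 2, the highest.

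Rpl3 broke the common pattern. This large-subunit protein near the peptide-bond centre had 429, 494 and 495 FPKM in KO replicates, against 501, 486 and 489 FPKM in WT replicates. WT replicate 1 was the highest library and KO replicate 2 exceeded the other 5 by 0.04 on the log2 scale, the second smallest value of the 82 tested members after Rpl7l1. Its log2 fold change was -0.06 (SE 0.11). At the other end stood Rpl36a, an X-linked member, with 403, 699 and 543 FPKM in KO replicates, against 442, 508 and 522 FPKM in WT replicates. KO replicate 2 was above the other 5 libraries by 0.54 for Rpl36a, by 0.52 for Rps14, by 0.52 for Rpl22l1 and by 0.49 for Rps19. Across the 6 libraries the members' own profiles followed the family mean with a median Pearson r of 0.958, and 64 of 82 were above 0.9. The lowest were Rpl7l1 at -0.67, Rps4l at 0.31, Rpl3 at 0.54, Rps27l at 0.58 and Rps2 at 0.60, values given as a description since each member shares its libraries with the mean.

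Although the ribosome holds most of its proteins in equal number, the deposited levels of their genes were far apart. Over the 77 standard members the mean over 6 libraries ran between 19.2 FPKM for Rps15a and 1585 FPKM for Rpl41, an 82.8-fold span with a median of 573 FPKM. The large-subunit median was 563 FPKM and the small-subunit median 593 FPKM. Of all 85 members 75 were at 100 FPKM or more in every library, and 36 of the 100 genes of highest mean FPKM were members. Rpl41, which encodes a very small basic peptide, had 1419, 1981 and 1492 FPKM in KO replicates, against 1452, 1560.1 and 1608 FPKM in WT replicates. Rpl23a, near the exit of the peptide tunnel, had 1257, 1638 and 1398 FPKM in KO replicates, against 1346, 1438 and 1475 FPKM in WT replicates. For both, KO replicate 2 was highest and KO replicate 1 lowest, and the log2 fold changes were 0.07 (SE 0.16) for Rpl41 and 0.00 (SE 0.14) for Rpl23a, whose sign turned with the scaling.

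**Figure D5:**
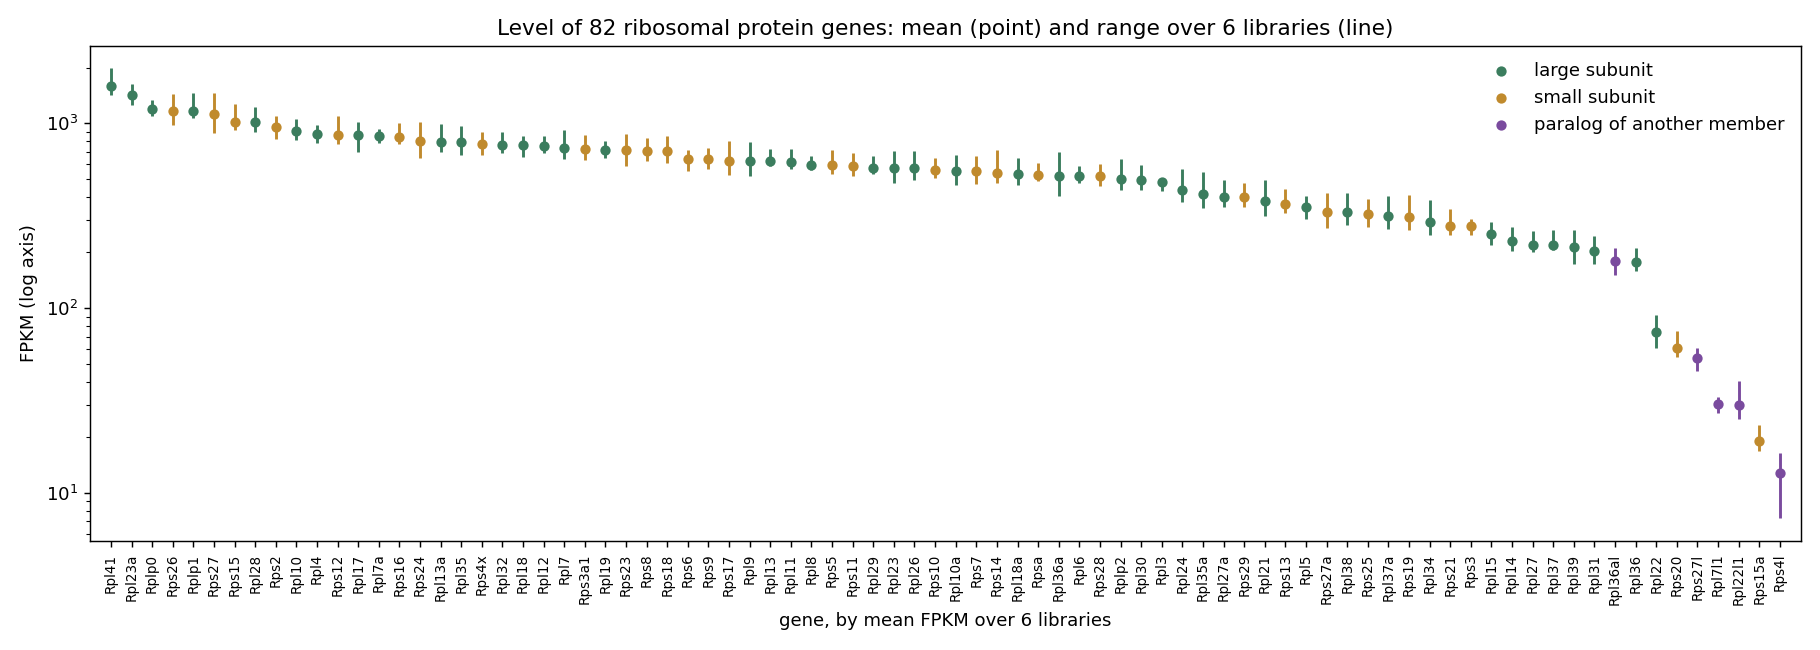
Mean FPKM (log axis) of the 82 tested ribosomal protein genes, ordered by level, as the mean over 6 libraries (point) with a line from the lowest to the highest library, coloured by large subunit, small subunit or paralog. Levels span 19.2 FPKM for Rps15a to 1585 FPKM for Rpl41 among the standard members, and the lines are short beside the differences between most genes at the ends of the order.

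The 3 standard members of lowest FPKM were those with the longest matched transcripts. Rps15a had 16.9, 23.2 and 16.9 FPKM in KO replicates, against 17.9, 18.5 and 21.6 FPKM in WT replicates, and its matched transcript has 5179 bases. Rps20 had 54.7, 74.7 and 58.0 FPKM in KO replicates, against 58.9, 60.6 and 59.0 FPKM in WT replicates, with 3706 bases. Rpl22 had 60.6, 92.0 and 70.8 FPKM in KO replicates, against 70.8, 73.5 and 77.1 FPKM in WT replicates, with 2051 bases. The annotation also lists Rps15a transcripts of 640 bases and less and an Rpl22 transcript of 474 bases, and FPKM depends on the length used, which is not given in the sources used here. For Rps20 a single transcript was matched. The part of transcript length in these low values was not tested. Multiplied by the matched length in kilobases, the standard members ran between 68.1 for Rpl36 and 1629 for Rplp0, a span of 23.9-fold. On that scale Rps15a came to 99.2, Rpl22 to 152 and Rps20 to 226, beside a median of 499. Across all 77 standard members FPKM and length had a Spearman rho of -0.108, a description across genes that share the same libraries.

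Near-identical copies of these genes sit elsewhere in the genome, and reads may be split between a gene and its copies. The pseudogene Rpl31-ps12, outside the family rule, was listed at 339, 491 and 389 FPKM in KO replicates, against 373, 389 and 426 FPKM in WT replicates, above Rpl31 itself. Rps15a-ps6 had 27.9, 43.3 and 30.2 FPKM in KO replicates, against 33.4, 39.4 and 34.9 FPKM in WT replicates, and Rps15a-ps4 had 26.1, 39.2 and 30.9 FPKM in KO replicates, against 27.0, 29.1 and 25.4 FPKM in WT replicates. Both copies were listed above Rps15a in every library. Rps27rt, a retrotransposed copy of Rps27, was listed at 0 in all 3 KO replicates, against 13.6, 42.1 and 0 FPKM in WT replicates. Rpl14-ps1 had 137, 203 and 182 FPKM in KO replicates, against 161, 172 and 155 FPKM in WT replicates, and Rpl37rt, a copy of Rpl37, had 54.5, 74.3 and 58.2 FPKM in KO replicates, against 69.4, 66.8 and 59.3 FPKM in WT replicates. The levels of Rpl14, Rpl31, Rpl37, Rps15a and Rps27, among members with such copies, are therefore uncertain. Rps27 had 886, 1467 and 1117 FPKM in KO replicates, against 996, 1107 and 1159 FPKM in WT replicates, far above the values listed for Rps27rt.

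The tested paralogs were listed below their partners, by different margins. Rpl3l, Rpl39l and Rpl32l were listed at no more than 0.13 FPKM in any library and were not tested. Rpl3l is known as a muscle-restricted replacement of Rpl3, and Rpl39l as a testis-enriched replacement of Rpl39. The other 5 were tested, and none passed. Rpl22l1, which can take the place of Rpl22, had 26.6, 40.3 and 25.1 FPKM in KO replicates, against 27.8, 26.4 and 33.6 FPKM in WT replicates. Its ratio to Rpl22 was 41.1% ± 4.82 in KO and 39.6% ± 3.86 in WT (SD, n = 3 each), which did not separate the groups by an exact permutation test (two-sided p = 0.8).

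Rps4l had the smallest p of all tested members. It had 12.9, 16.4 and 15.2 FPKM in KO replicates, against 11.5, 13.2 and 7.27 FPKM in WT replicates, with KO replicate 1 below WT replicate 2. Its log2 fold change was 0.47 (SE 0.20), at an unadjusted limma p of 0.0477 and an adjusted p of 0.9995 with Benjamini-Hochberg adjustment. WT replicate 3 was the lowest library, and without it the log2 fold change was 0.24. As a share of its X-linked partner Rps4x, Rps4l came to 1.91%, 1.83% and 2.11% in KO replicates, against 1.55%, 1.65% and 0.898% in WT replicates. The 3 KO ratios were all above the 3 WT ratios, with means of 1.95% ± 0.143 and 1.37% ± 0.409 (SD, n = 3 each) and an exact permutation p of 0.1, the smallest that this design allows, or 0.5 with Benjamini-Hochberg adjustment over the 5 paralog pairs. Rps4x had 675, 896 and 722 FPKM in KO replicates, against 741, 801 and 809.6 FPKM in WT replicates.

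The other pairs overlapped between genotypes. The ratio of Rpl36al to Rpl36a was 33.9% ± 8.43 in KO and 36.5% ± 3.01 in WT, that of Rps27l, a p53-responsive relative of Rps27, to Rps27 was 4.74% ± 1.07 in KO and 4.97% ± 0.371 in WT, and that of Rpl7l1 to Rpl7 was 3.999% ± 0.961 in KO and 4.30% ± 0.110 in WT (SD, n = 3 each; exact permutation p between 0.7 and 0.8). Rpl7l1 had 31.3, 27.2 and 29.5 FPKM in KO replicates, against 29.5, 30.1 and 32.9 FPKM in WT replicates. It was the only member lowest in KO replicate 2, where its partner Rpl7 was highest with 919 FPKM, against 644 and 707 FPKM in the other KO replicates and 669 to 786 FPKM in WT replicates. Rpl36al had 175, 212 and 151 FPKM in KO replicates, against 175, 171 and 189 FPKM in WT replicates, and Rps27l had 52.9, 61.0 and 45.6 FPKM in KO replicates, against 52.4, 50.4 and 59.0 FPKM in WT replicates. None of the 5 tested paralogs was lowest in KO replicate 1, unlike 67 of the 77 standard members.

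The sequence around the transcription start is shown for some of the members. RefSeq promoter windows of build GRCm38.p6, reaching 250 bases before the start and 50 after it, covered 76 starts of 64 members. A TOP-like start, defined here as C at the start base followed by at least 4 bases of C or T, was found at 14 of these 76 starts (18.4%) and at 2.51% of all 32851 starts in the table. Annotated starts can lie a few bases away from the true ones, so a missing match says only that these letters are not at the annotated base. The windows below run 5′ to 3′ on the gene's strand over 30 bases, with the unbroken run of C and T that covers the start base in capitals. Rps6 and Rplp2 were described above, Rps27, Rps18 and Rps15a are small-subunit and Rpl28 and Rpl35 large-subunit examples, and Rpl41 and Rplp0 are abundant members whose annotated start holds no such run.
Rps6, chr4:86857353-86857382, minus strand: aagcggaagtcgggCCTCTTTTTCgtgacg
Rps27, chr3:90213634-90213663, minus strand: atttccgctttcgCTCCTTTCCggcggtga
Rps18, chr17:33955651-33955680, minus strand: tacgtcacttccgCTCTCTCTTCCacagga
Rps15a, chr7:118116133-118116162, minus strand: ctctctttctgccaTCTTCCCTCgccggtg
Rplp2, chr7:141447636-141447665, plus strand: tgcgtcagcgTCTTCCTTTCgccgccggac
Rpl28, chr7:4792950-4792979, plus strand: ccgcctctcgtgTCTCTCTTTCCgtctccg
Rpl35, chr2:39005117-39005146, minus strand: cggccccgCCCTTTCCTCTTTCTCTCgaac
Rpl41, chr10:128549154-128549183, minus strand: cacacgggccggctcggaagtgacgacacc
Rplp0, chr5:115559452-115559481, plus strand: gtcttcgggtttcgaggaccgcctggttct

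Members with and without such a start are set side by side here, and the difference between them was not tested. The 13 tested members with a TOP-like annotated start had medians of 500.3 FPKM, a log2 fold change of 0.05, and deviations of 0.34 in KO replicate 2 and -0.22 in KO replicate 1 from the other 5 libraries. The 48 tested members with other annotated starts had medians of 563 FPKM, 0.03, 0.32 and -0.20 for the same quantities. They include members with a run of C and T over a start base of T, such as Rpl7a (21 bases) and Rpl27a (19 bases). The classes are therefore not messengers with and without a TOP sequence. Rps6 and Rps27, whose runs are shown above, and Rpl41 and Rplp0, which show none, were all highest in KO replicate 2. So were 80 of the 82 tested members, so these examples cannot tell the classes apart.

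Other short motifs were searched on both strands of the 300-base windows. TTTCCG was found at 29 of 76 member starts (38.2%) and 8.89% of all starts, and CCGGAAGT, the core bound by ETS-family factors, at 12 member starts (15.8%) and 3.89% of all starts. Neither of these motifs contains the other in either orientation. The E-box CACGTG, the kind of element that occurs as a spaced pair in the ChREBP response element, was found at 8 of 76 member starts (10.5%), in 6 members. It was found at 7.15% of all starts and 7.84% of starts of protein-coding genes. Rpl19 and Rpl34 each have starts with overlapping windows, which can count the same element more than once. Counted by gene, 6 of 64 members and 1559 of 17492 protein-coding genes held the E-box, which are similar shares. The 6 members with it (Rpl13a, Rpl14, Rpl19, Rpl23, Rpl34 and Rps19) had a median log2 fold change of 0.06, beside 0.03 for the 55 others with a window. A match is a description of letters, and binding was not measured.

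Fau encodes the standard ribosomal protein S30 as a fusion with a ubiquitin-like protein and falls outside the symbol rule. It had 485, 715 and 577 FPKM in KO replicates, against 514, 554 and 559 FPKM in WT replicates. It was lowest in KO replicate 1 and highest in KO replicate 2, as most members were, with a log2 fold change of 0.11 (SE 0.15).

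Elongation factors and other known TOP messengers showed a weaker form of the pattern: of 17 tested, 12 were highest in KO replicate 2 and 12 lowest in KO replicate 1, with medians of 0.19 and -0.16, and 14 log2 fold changes were positive (median 0.05). Among them, the splicing factor Hnrnpa1 had 80.2, 114.9 and 99.9 FPKM in KO replicates, against 85.8, 97.2 and 79.5 FPKM in WT replicates. Ribosome biogenesis factors, which assemble the subunits in the nucleolus, ran the other way. Of 31 tested, 1 was highest in KO replicate 2 and 16 in KO replicate 1, beside 25.8% and 17.3% of all tested genes. Their medians were -0.19 in KO replicate 2 and 0.23 in KO replicate 1. By transcript length, medians of other tested genes in KO replicate 2 ran from 0.27 under 500 bases to -0.12 at 4000 bases or more. These lists were not set against genes of like length, and the part of length was not tested. Between genotypes 21 of the 31 biogenesis factors were positive (median 0.02). The biogenesis factor Nob1, which trims the small-subunit RNA, had 12.3, 13.1 and 13.4 FPKM in KO replicates, against 12.1, 11.8 and 11.5 FPKM in WT replicates, a log2 fold change of 0.13 that did not pass.

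Of 23 tested initiation factors 3 were highest in KO replicate 2 and 11 in KO replicate 1. The shares over all tested genes were 25.8% and 17.3%. Between genotypes 10 of these factors were positive and 13 negative (median log2 fold change -0.02). The initiation factor Eif5b, which joins the subunits, had 15.8, 9.91 and 13.7 FPKM in KO replicates, against 15.5, 15.4 and 16.0 FPKM in WT replicates. Of 11 tested genes of the RNA polymerase I machinery, which transcribes ribosomal RNA, 9 were positive (median 0.09). Of 13 genes of the mTORC1 branch that governs TOP translation 6 were positive (median -0.01). Larp1, which binds TOP messengers, had 40.3, 29.1 and 36.3 FPKM in KO replicates, against 40.4, 40.9 and 41.4 FPKM in WT replicates. The KO values of Larp1 were all below the WT values, with a log2 fold change of -0.22. KO replicate 2, where the ribosomal protein genes were highest, held its lowest value. Larp1 was not set against genes of like transcript length. No gene of these lists passed the test by limma with Benjamini-Hochberg adjustment (smallest adjusted p 0.9995).

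Mitochondrial ribosomal protein genes, a list added after values were seen, were often highest in KO replicate 2 and seldom lowest in KO replicate 1. Of 77 tested, 44 and 8 were so, beside 25.8% and 21.0% of all tested genes, with medians of 0.15 and -0.01. In KO replicate 2 other tested genes of 500 to 1000 bases had a median of 0.25. Those of 1000 to 2000 bases had 0.14. The part of transcript length was not tested. Between genotypes 57 of the 77 were positive (median 0.06) and 0 passed the test. Outside the family, the protein-coding genes whose profile over the 6 libraries was most like the member mean were Ephx4 (Pearson r 0.998), Impact (0.997), Cox6a1 (0.991), Cyp2d34 (0.990) and Cox5b (0.987), and 2.68% of 12581 compared genes were above 0.9. Cox6a1, a subunit of cytochrome c oxidase, had 657, 859 and 706 FPKM in KO replicates, against 695, 705 and 712 FPKM in WT replicates. KO replicates 1 and 2 stood at the ends of the family mean, at 8.58 and 9.02 on the log2(FPKM + 1) scale, while KO replicate 3 stood at 8.71 and the WT libraries between 8.68 and 8.75.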

How the data were processed

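Poly-A RNA libraries were made from 6 distal colon samples, per the labels' protocols, which name no step that marks strand. The authors deposited FPKM values per gene and library. HISAT2, RSEM and mm39 are named per the submitters' processing notes, and neither their versions nor any further scaling is given in the sources used here. The 13247 genes that reached 1 FPKM in at least 3 libraries were tested on log2(FPKM + 1) with limma 3.58.1 in R 4.3.3 (two-sided, genotype alone in the model, variance trend on, Benjamini-Hochberg adjustment, threshold 0.05). A fold change on this scale understates that of low genes. The fit was run on simulated data with independent noise per gene and 200 genes changed 2-fold. That setting holds no shift shared by genes within a library, so it does not bear on the pattern described here. Transcript lengths came from GENCODE transcripts of an older build, matched by RefSeq accession (82 of 82 tested members), and promoter windows from RefSeq (GRCm38.p6). No coordinates were carried between builds.

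The members, gene lists and tests were chosen with earlier results of these data known. Named members were the 6 highest and 4 lowest by FPKM, Rplp0 to Rplp2, Rpsa, Rpl5, Rpl11, Rps6, Rps19, Rps27a, Rpl41, the paralogs and their partners, the 5 of smallest p in each direction and the 3 of largest spread, and not all are described. Rps2, Rps14, Rpl14, Rpl31 and the pseudogenes and other copies were named after their values were seen, and Rpl32l was classed as a paralog then. Alternatives covered the pseudocount, filter, scaling, model of the spread, replicate block and omitted libraries. The labels do not state separate litters or batches, so p-values measure the spread between these samples. One other gene that the naming rule selects is not reported here.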

Additional observations from a re-analysis of the deposited data

How the results depend on the processing

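The count of 2 genes past the threshold became 0 with a filter of 5 FPKM, 0 with the replicate number as a block (504 genes at an unadjusted p under 0.05), 1 without KO replicates 1 and 2 (an alternative chosen after seeing the data), and 0 to 1 with each library left out in turn. By limma with Benjamini-Hochberg adjustment, the count of members past the threshold was 0 in every fit run. The count of members higher in KO, 65 of 82, was 65 with the replicate block, 5 to 79 with each library left out, and 30 without KO replicates 1 and 2. Their median log2 fold change of 0.03 was 0.03 with the replicate block, -0.0912 to 0.130 with each library left out, and -0.0195 without KO replicates 1 and 2. The difference in share of 0.141 percentage points was 0.141 within replicate numbers (the replicate block), -0.496 to 0.675 with each library left out, and -0.0659 without KO replicates 1 and 2. Each replicate number holds a single KO and a single WT library, so the block leaves these estimates unchanged by arithmetic and is no check on them. Same-numbered libraries of the 2 genotypes deviated together with correlations of 0.270, -0.0963 and 0.0629, beside -0.289 to 0.253 for KO and WT libraries of different numbers. So few values cannot decide whether the numbers pair the mice. Without KO replicate 2, 18 of 48 named genes changed sign, and 7 did without KO replicate 1; none passed the threshold in any fit. The absolute depth is unknown, so no floor is given for the 3 paralogs listed near 0. The cause of these shifts was not tested.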
